A study of Mus musculus with 6 samples.

Results

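The CCN genes encode secreted, cysteine-rich proteins of the extracellular matrix that act on cells rather than building the matrix itself. Of the 50385 genes in the deposited table, 5 belong to this family as followed here, Ccn1 to Ccn5, chosen by gene symbol alone, and all 5 were measured. Their older names are Cyr61 (Ccn1), Ctgf (Ccn2), Nov (Ccn3), Wisp1 (Ccn4) and Wisp2 (Ccn5). In the GENCODE M21 annotation (GRCm38) Ccn1 (ENSMUSG00000028195) lies on chromosome 3, Ccn2 (ENSMUSG00000019997) on chromosome 10, Ccn3 (ENSMUSG00000037362) and Ccn4 (ENSMUSG00000005124) on chromosome 15, and Ccn5 (ENSMUSG00000027656) on chromosome 2. Ccn6 was not analysed here.

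The RNA came from hearts of male Mdx/Utrn dKO mice, which carry no working dystrophin and lack its relative utrophin, in 2 groups of 3 libraries. The first group had setanaxib, described in the labels as a Nox4 inhibitor, at a daily dose of 60 mg/kg by gavage, and the second had the corn oil vehicle; both lasted 12 weeks and began at 2 to 3 months of age. Both groups carry the same double knockout, and no wild-type heart was analysed here, so the comparison is of setanaxib with vehicle within diseased hearts. The labels do not say in words that each library is a separate animal. The p-values below set a difference between groups against the spread between these libraries.

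A CCN protein is made of modules that resemble an insulin-like growth factor binding protein, a von Willebrand factor type C repeat and a thrombospondin type 1 repeat, followed in most members by a cystine-knot C-terminal module that Ccn5 lacks. The proteins bind integrins, the low-density lipoprotein receptor-related proteins and heparan sulfate proteoglycans. In the heart Ccn2 is best known as a fibrosis-associated gene that responds to transforming growth factor beta (TGF-beta), to stretch and to YAP/TAZ, the co-activators that act through TEAD factors on DNA. Ccn1 responds to many of the same inputs and is also an immediate early gene, one that switches on within minutes of a stimulus without new protein synthesis.

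The promoter of Ccn1 is shown because Ccn1 was the member in which a single library stood farthest above the others, and because genes of TEAD factors and of immediate early induction are set beside it below. RefSeq's promoter table for GRCm38.p6 held 1 of the 5 members. The window is chr3:145649936-145650235, minus strand, 300 bases from 250 before the start site to 50 after it, with a GC content of 57%. Capitals mark the match to the TEAD core GGAATG, which lies on the minus strand of the printed sequence.
Ccn1: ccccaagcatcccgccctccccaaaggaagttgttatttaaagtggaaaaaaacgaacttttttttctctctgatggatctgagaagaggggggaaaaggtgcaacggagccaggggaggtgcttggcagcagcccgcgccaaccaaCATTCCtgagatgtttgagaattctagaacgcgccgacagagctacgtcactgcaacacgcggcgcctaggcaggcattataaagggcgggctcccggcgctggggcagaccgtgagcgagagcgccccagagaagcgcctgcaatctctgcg

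The TEAD match began 103 bases before the start site. The letters GGAATG, read on both strands, occur in 14.7% of the 32851 promoters of that table. A cyclic AMP response half-site, TGACGT, began 59 bases before the start site, did not overlap the TEAD match, and occurs in 7.51% of promoters. The AP-1 letters TGANTCA (7.81% of promoters), the full response element TGACGTCA (1.79%), the SMAD letters CAGACA (21%) and the CArG box of serum response factor (1.63%) were not in this window. These are matches of letters and not measured binding.

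Libraries held 110803307 to 154003318 estimated counts, and the lowest value of any member in a library was 104 estimated counts, for Ccn5. Levels are given as CPM, counts scaled to a common library size after trimmed mean of M values (TMM) normalisation. Genes of the mitochondrial genome took 20.5% to 30.0% of the counts. Ventricular cardiomyocyte markers summed to between 31643 and 44628 CPM in all 6 libraries, as the heart label requires, and skeletal muscle Myh4 and Myh1 were at 0 in all 6. Dmd was at 108 to 178 CPM with setanaxib and 124 to 140 CPM with vehicle, and Utrn at 60.8 to 106 CPM with setanaxib and 73.7 to 85.7 CPM with vehicle; sums over a whole gene do not test either mutant allele. Nox4, whose protein setanaxib inhibits, was at 1.06, 3.07 and 2.09 CPM with setanaxib, against 2.93, 1.82 and 5.99 CPM with vehicle, with overlapping groups. Setanaxib replicates 1 and 3 stood apart from the rest in marker or immediate early genes. In setanaxib replicate 3 the atrial markers summed to 2914 CPM, whereas the other 5 libraries had 66.5 to 568 CPM. In the same library lung epithelial markers summed to 602 CPM against 0 to 19.6 CPM, and adipocyte markers to 64.3 CPM against 0 to 2.17 CPM. The lung sum there was mostly Scgb1a1 at 598 CPM, with Sftpb at 2.76 CPM and Sftpc at 1.34 CPM. Of the adipocyte markers Cidec was at 50.2, Plin1 at 8.71, Retn at 4.25, Lep at 1.09 and Adipoq at 0.0911 CPM in that library. The mesothelial and epicardial markers of setanaxib replicate 3 summed to 30.4 CPM against 2.87 to 7.18 CPM, with Krt19 at 0 in all 6. Atrial Myl7 was also present in vehicle replicates 1 and 3, at 23.3 and 21.4 CPM. It was at 0.605 and 1.33 CPM in setanaxib replicates 1 and 2 and 0.103 CPM in vehicle replicate 2. In setanaxib replicate 1 the 18 immediate early genes summed to 842 CPM, whereas the other 5 had 288 to 441 CPM. Valve and cartilage markers summed to 4.5 to 30.5 CPM with setanaxib and 10.6 to 17.2 CPM with vehicle (Acan and Col2a1 at 0), Schwann cell markers to 2.59 to 10.9 CPM with setanaxib and 3.77 to 5.60 CPM with vehicle, and erythroid markers to 1967 to 2935 CPM with setanaxib and 1646 to 3105 CPM with vehicle.

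No CCN gene passed the test over all genes. All 5 passed the filter on low counts, and edgeR's quasi-likelihood test with Benjamini-Hochberg adjustment over 20472 genes called 0 of them; across the whole table it called 0.00488% of genes. At an unadjusted p under 0.05 edgeR counted 0 members, against 8.46% of all genes (4.69% lower and 3.76% higher with setanaxib). DESeq2 and limma-voom also called 0 members after adjustment, and DESeq2 called 2.42% of the same genes. Setanaxib values did not overlap vehicle values for 1 member, Ccn5, which was lower, and 17.6% of all genes had groups that did not overlap, 9.46% with setanaxib lower and 8.11% with setanaxib higher. The median log2 fold change of the 5 members was -0.29, beside 0.01 for all genes tested, of which 10564 had a positive and 9908 a negative value. In bulk tissue fewer cells of a type and less RNA per cell cannot be told apart.

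**Figure D1:**
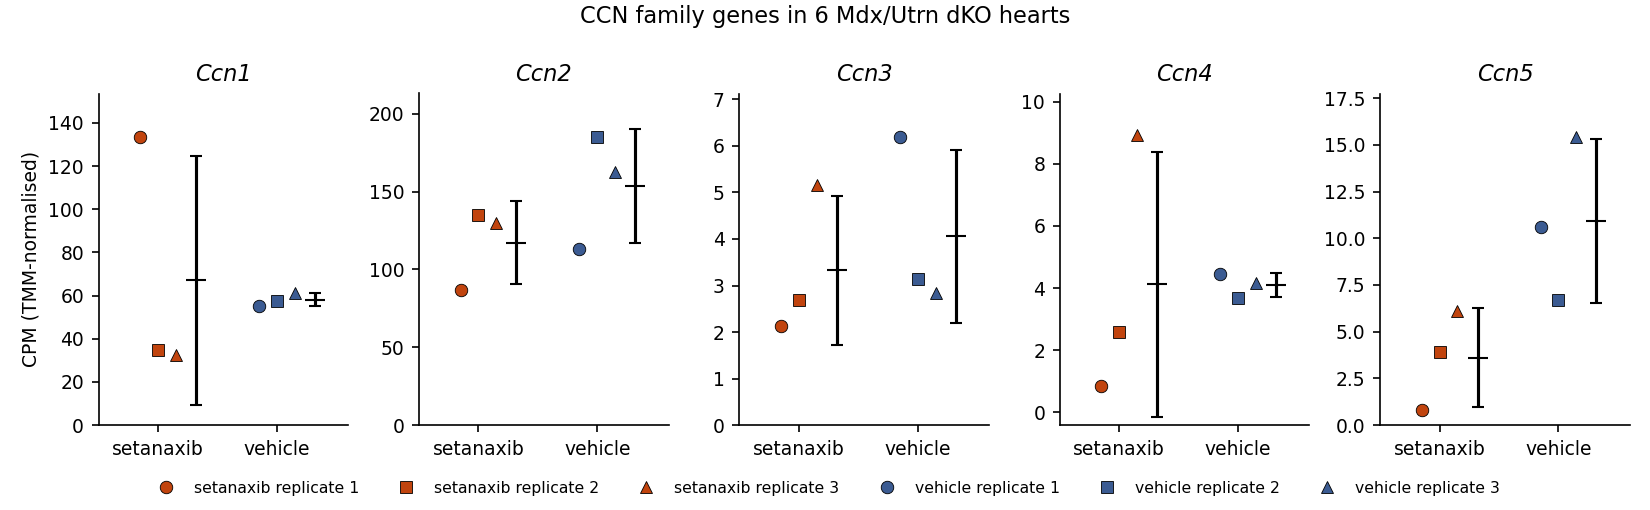
CPM of each CCN gene in every library, with setanaxib left and vehicle right in each panel; symbols mark replicates, and the bar beside each group is its mean ± SD (n = 3). Setanaxib replicate 1 has the highest Ccn1, 134 CPM, and the lowest level of each of the other 4 members.

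Ccn1 split the setanaxib libraries. It was at 134, 34.8 and 32.7 CPM in setanaxib replicates 1 to 3, against 55.1, 57.7 and 61.2 CPM in vehicle replicates 1 to 3. The vehicle libraries lay within 1.11-fold of each other, while setanaxib replicate 1 was above every vehicle library and setanaxib replicates 2 and 3 were below every one. The means were 67.0 ± 57.7 CPM with setanaxib and 58.0 ± 3.04 CPM with vehicle (SD, n = 3 each). The log2 fold change was 0.21 (SE 0.55, 95% interval -1.13 to 1.55, edgeR adjusted p = 0.955). Without setanaxib replicate 1 it was -0.79 (SE 0.09), with an unadjusted p of 0.000225 and an adjusted p of 0.215 in edgeR; with 2 against 3 libraries Ccn1 did not pass over all genes either. With all 6 libraries limma-voom gave -0.12, so the sign of the Ccn1 difference turned both with 1 library and with the method.

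Ccn2, the fibrosis-associated member, was at 86.6, 135 and 130 CPM in setanaxib replicates 1 to 3, against 113, 185 and 163 CPM in vehicle replicates 1 to 3. The groups overlapped through vehicle replicate 1, which was below setanaxib replicates 2 and 3. The log2 fold change was -0.39 (SE 0.24, 95% interval -0.97 to 0.19, edgeR adjusted p = 0.726), and it was negative with each library left out in turn, from -0.58 to -0.22. Gm15270 overlaps Ccn2 on the opposite strand in the GENCODE M21 annotation and was at 1.02 to 1.49 CPM with setanaxib and 1.57 to 1.81 CPM with vehicle. No source used here states whether counting was by strand, so reads of this pair cannot be told apart.

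Ccn3, known from other settings as a member whose protein can oppose Ccn2, was at 2.12, 2.69 and 5.15 CPM with setanaxib, against 6.20, 3.15 and 2.84 CPM with vehicle, in replicate order. Each group held 1 library well above the rest of that group, setanaxib replicate 3 and vehicle replicate 1. The log2 fold change of -0.29 (SE 0.44, 95% interval -1.36 to 0.79, edgeR adjusted p = 0.913) turned to 0.14 without vehicle replicate 1.

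Ccn4, a Wnt-induced member, was at 0.841, 2.59 and 8.92 CPM with setanaxib, against 4.45, 3.68 and 4.17 CPM with vehicle, in replicate order. Vehicle libraries differed by at most 1.21-fold, and setanaxib libraries by 10.6-fold, lying on both sides of them. The group means, 4.12 ± 4.25 CPM with setanaxib and 4.10 ± 0.393 CPM with vehicle (SD, n = 3 each), were almost equal while the spread was not. The log2 fold change was 0.0062 (SE 0.76, 95% interval -1.83 to 1.85, edgeR adjusted p = 0.999). It was -1.26 (SE 0.48, edgeR adjusted p = 0.359) without setanaxib replicate 3. That library was highest in atrial, lung, adipocyte, mesothelial, valve and Schwann cell markers. Without setanaxib replicate 1 the log2 fold change was 0.48 (SE 0.50), and limma-voom gave -0.59 on all 6 libraries. Whether the tissue behind those markers carries the Ccn4 signal was not tested.

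Ccn5, the member without the C-terminal module, had the widest range, with 18.9-fold between its lowest and highest library. It was at 0.818, 3.89 and 6.11 CPM in setanaxib replicates 1 to 3, against 10.6, 6.69 and 15.4 CPM in vehicle replicates 1 to 3. Every setanaxib library was below every vehicle library, with the closest pair, 6.11 and 6.69 CPM, nearly touching. Atrial markers summed to 66.5, 108 and 2914 CPM with setanaxib and 239, 121 and 568 CPM with vehicle, in replicate order. Within each group Ccn5 followed the same order of libraries. Fibroblast markers, which summed to 555, 720 and 905 CPM with setanaxib and 1124, 844 and 1159 CPM with vehicle, had this order too. So did lung epithelial markers, at 0.102, 0.114 and 602 CPM with setanaxib and 3.89, 0 and 19.6 CPM with vehicle. The part of any of these tissues in the Ccn5 values was not tested. The log2 fold change of Ccn5 was -1.60 (SE 0.70, 95% interval -3.29 to 0.09, edgeR unadjusted p = 0.0598, adjusted p = 0.615), and DESeq2 gave -1.61 (SE 0.66, unadjusted p = 0.0150, adjusted p = 0.244). It was negative with each library left out in turn, from -2.21 to -1.13, without passing over all genes in any of these fits.

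**Figure D2:**
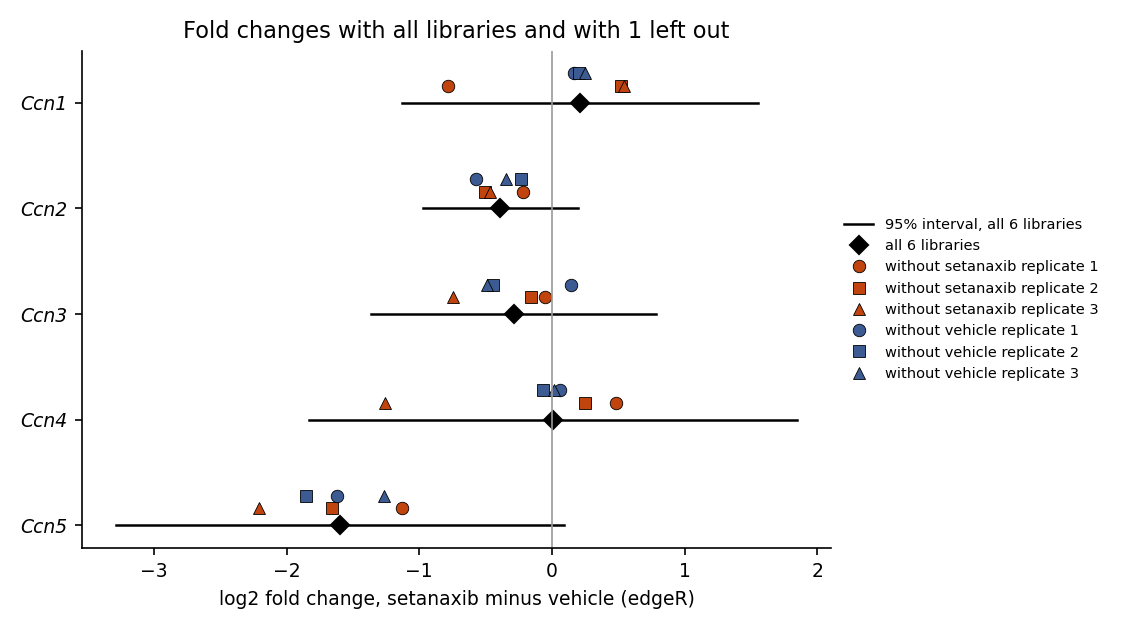
Log2 fold change of each CCN gene, setanaxib minus vehicle, with the 95% interval from all 6 libraries (diamonds and lines) and the value with 1 library left out (coloured symbols). Ccn2 and Ccn5 lie below 0 in all 7 fits shown, while Ccn1 moves to -0.79 without setanaxib replicate 1 and Ccn4 to -1.26 without setanaxib replicate 3.

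Per kilobase of exon, which allows genes to be compared, Ccn2 and Ccn1 were the abundant members. With setanaxib the levels averaged 41.0 ± 9.31 CPM per kilobase for Ccn2, 33.2 ± 28.6 for Ccn1, 1.87 ± 1.38 for Ccn5, 1.16 ± 0.561 for Ccn3 and 0.740 ± 0.764 for Ccn4 (SD, n = 3). With vehicle they averaged 53.7 ± 12.9 CPM per kilobase for Ccn2, 28.7 ± 1.5 for Ccn1, 5.67 ± 2.28 for Ccn5, 1.4 ± 0.65 for Ccn3 and 0.737 ± 0.0706 for Ccn4. Ccn2 was above Ccn1 in 5 of 6 libraries, and Ccn1 was above Ccn2 in setanaxib replicate 1 alone. Ccn5 was above Ccn3 in 5 libraries, with the order turned in the same library. Ccn3 was above Ccn4 in all 6, but in setanaxib libraries the SDs of Ccn5, Ccn3 and Ccn4 spanned the gaps between them.

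The balance of Ccn5 to Ccn2 within a library does not depend on scaling between libraries. In animal models the protein of Ccn5 has been reported to counter that of Ccn2. The log2 ratio of their counts was -6.72, -5.12 and -4.41 in setanaxib replicates 1 to 3, against -3.41, -4.79 and -3.40 in vehicle replicates 1 to 3. Vehicle replicate 2 lay between setanaxib replicates 2 and 3, so the groups overlapped. The means were -5.42 ± 1.18 with setanaxib and -3.87 ± 0.80 with vehicle (SD, n = 3 each). Their difference was -1.55, and an exact two-sided permutation test over the 20 assignments gave p = 0.2, where 0.1 is the smallest possible.

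The spread between libraries differed among the members. Among the 14618 tested genes whose average log2 CPM was 0 or more, the SD of log2 CPM over setanaxib libraries was at the 98.2 percentile for Ccn4, the 97.8 percentile for Ccn5 and the 95.8 percentile for Ccn1. Over vehicle libraries the same members were at the 56.6, 97.2 and 27.3 percentiles. Ccn3 was at the 86.8 percentile with setanaxib and the 97.3 percentile with vehicle, and Ccn2 at the 66.3 percentile with setanaxib and the 89.9 percentile with vehicle. Ccn1 was thus less variable than most genes with vehicle and Ccn4 near the middle, while Ccn5 and Ccn3 were scattered in both groups. The median gene had an SD of 0.26 with setanaxib and 0.12 with vehicle.

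**Figure D3:**
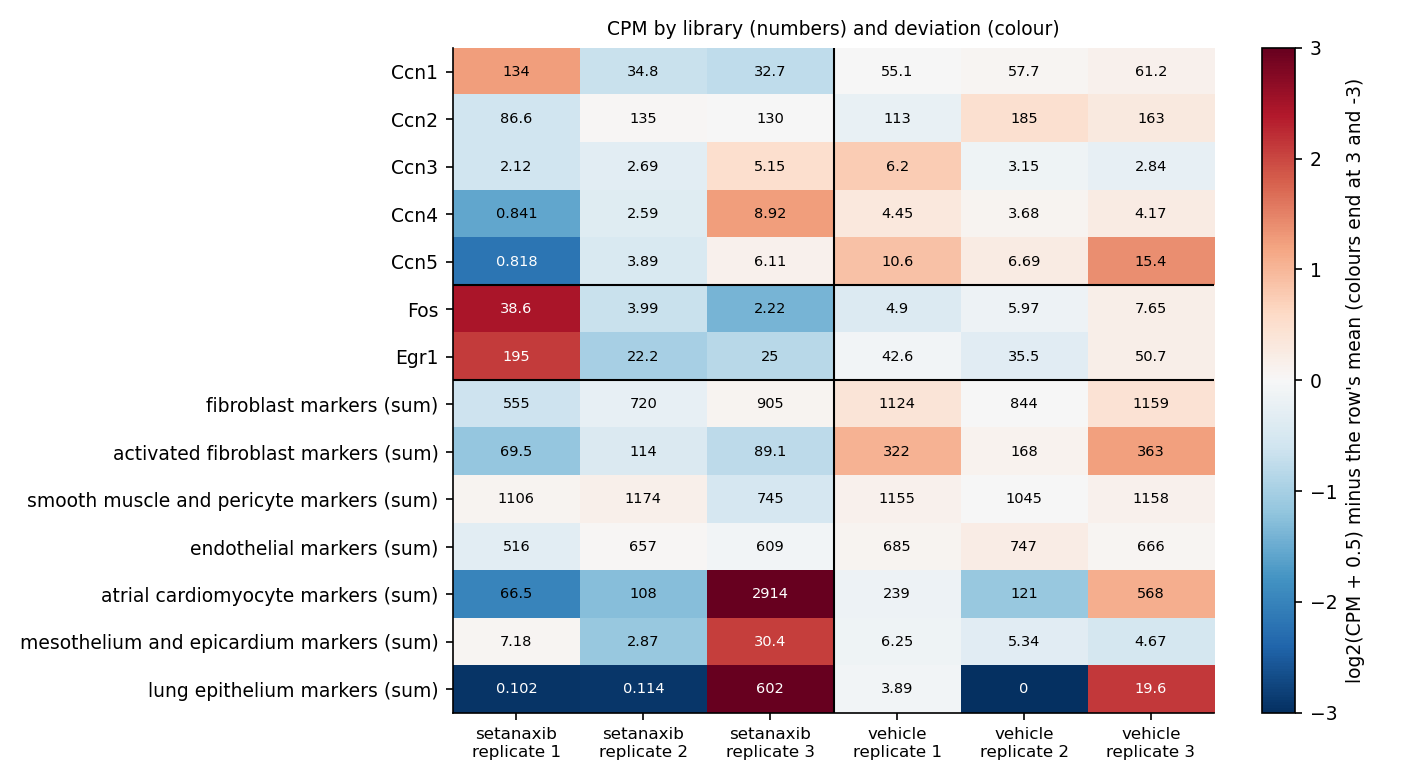
CPM in each library (numbers) for the CCN genes, the immediate early genes Fos and Egr1 and the summed markers of 7 cell types, with colour showing log2(CPM + 0.5) minus the row's mean. Ccn1, Fos and Egr1 are highest in setanaxib replicate 1, and Ccn4 is highest in setanaxib replicate 3 together with the atrial, mesothelial and lung markers.

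Immediate early genes were read beside Ccn1. Fos, a subunit of AP-1, was at 38.6, 3.99 and 2.22 CPM in setanaxib replicates 1 to 3, against 4.90, 5.97 and 7.65 CPM in vehicle replicates 1 to 3. Egr1, a zinc-finger factor induced by growth signals and stretch, was at 195, 22.2 and 25.0 CPM with setanaxib, against 42.6, 35.5 and 50.7 CPM with vehicle. Both split as Ccn1 did, with setanaxib replicate 1 above all vehicle libraries and setanaxib replicates 2 and 3 below them. Fos also repeated the full order of Ccn1 over the libraries, and Egr1 did not. Of the 18 genes in the list, 12 were highest in setanaxib replicate 1, and 10 had a positive and 8 a negative log2 fold change (median 0.12). Without setanaxib replicate 1 the counts were 1 and 17 (median -0.38). The list's 3 members of lowest p, Egr3, Jun and Egr2, did not share this pattern. Setanaxib values of each lay below all its vehicle values, at a log2 fold change of -1.74 for Egr3 (SE 0.51), -0.42 for Jun (SE 0.14) and -1.26 for Egr2 (SE 0.44), with edgeR adjusted p from 0.451 to 0.528. In the whole list of 18, setanaxib values were below all vehicle values for 4 (9.46% of all genes). EdgeR called 0 of the 18, with 3 lower at an unadjusted p under 0.05 (4.69% of all genes). Thbs1, a thrombospondin chosen after its values were seen, also repeated the order of Ccn1, at 96.1, 24.2 and 23.4 CPM with setanaxib, against 51.5, 58.5 and 69.3 CPM with vehicle. The part of the immediate early genes' state in the Ccn1 value was not tested.

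Genes of YAP/TAZ and TEAD, which Ccn1 and Ccn2 respond to, had both signs. Of 20 other target genes, 9 had a positive and 11 a negative log2 fold change, with a median of -0.03, and edgeR called 0; 1 higher and 2 lower members had an unadjusted p under 0.05 (3.76% and 4.69% of all genes). Without setanaxib replicate 3 the counts were 6 and 14 (median -0.27), with 5 lower at an unadjusted p under 0.05, and without setanaxib replicate 2 they were 11 and 9 (median 0.03). Leaving out vehicle replicate 3 also gave 11 and 9 (median 0.04). Ankrd1, a stretch-responsive cardiac ankyrin repeat protein, was at 144, 311 and 312 CPM with setanaxib, against 507, 928 and 672 CPM with vehicle (log2 fold change -1.46, SE 0.36, edgeR adjusted p = 0.395; DESeq2 adjusted p = 0.00268). Tgfb2, a TGF-beta ligand, was at 9.55, 13.5 and 18.0 CPM with setanaxib, against 21.8, 22.4 and 25.9 CPM with vehicle (log2 fold change -0.77, SE 0.23, edgeR adjusted p = 0.464). In the opposite direction Amotl2, an angiomotin that holds YAP back, was at 75.3, 80.2 and 90.1 CPM with setanaxib, against 59.7, 69.7 and 69.1 CPM with vehicle (log2 fold change 0.31, SE 0.11, edgeR adjusted p = 0.530). None of the 3 had overlapping groups, and among the 20 targets they were the only such members, a share near the 17.6% of all genes.

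The Hippo list held the kinase cascade that restrains YAP and TAZ together with the genes of YAP, TAZ and the TEAD factors themselves. Of its 16 genes 6 had a positive and 10 a negative log2 fold change (median -0.05). EdgeR called 0, with 3 lower at an unadjusted p under 0.05 (4.69% of all genes). For 4 the setanaxib values were below all vehicle values (9.46% of all genes). Without setanaxib replicate 2 the counts were 10 and 6 (median 0.02), and without setanaxib replicate 3 they were 4 and 12 (median -0.11). Yap1 was at 70.8, 87.4 and 79.7 CPM with setanaxib, against 97.4, 92.9 and 95.6 CPM with vehicle (log2 fold change -0.27, SE 0.10, edgeR adjusted p = 0.552). Wwtr1, which encodes TAZ, had overlapping groups (log2 fold change -0.11, SE 0.09). The log2 fold change was -0.77 (SE 0.20; DESeq2 adjusted p = 0.0305) for Amot, an angiomotin, and -0.28 (SE 0.10) for Mob1a, a kinase adaptor. These differences are differences in RNA, while the pathway works mainly through phosphorylation.

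Actin-linked genes driven by myocardin-related transcription factors and serum response factor (MRTF/SRF), a further route to Ccn1 and Ccn2, had 13 of 15 negative log2 fold changes (median -0.27). For 6 of the 15 the setanaxib values were below all vehicle values (9.46% of all genes). EdgeR called 0, with 3 lower at an unadjusted p under 0.05 (4.69% of all genes), and DESeq2 called 1 (2.42% of all genes in either direction). Without setanaxib replicate 3, 5 were lower at that unadjusted threshold. The 3 of lowest p were Myh9 (non-muscle myosin; log2 fold change -0.48, SE 0.12), Cnn2 (a calponin; -0.45, SE 0.16) and Actb (beta-actin; -0.63, SE 0.22). Acta2, smooth muscle alpha-actin, was at 182, 198 and 67.8 CPM with setanaxib, against 198, 134 and 207 CPM with vehicle, with overlapping groups.

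Upstream, the 3 TGF-beta ligands had setanaxib values below all vehicle values (9.46% of all genes). Tgfb1 was at 21.8, 28.1 and 26.2 CPM with setanaxib, against 35.1, 40.3 and 34.8 CPM with vehicle (log2 fold change -0.54, SE 0.13, edgeR adjusted p = 0.383; DESeq2 adjusted p = 0.00954). For Tgfb3 the log2 fold change was -0.73 (SE 0.21). The co-receptor Tgfbr3 was on the other side, at 105, 94.0 and 131 CPM with setanaxib, against 76.4, 65.4 and 77.3 CPM with vehicle (log2 fold change 0.59, SE 0.15, edgeR adjusted p = 0.396; DESeq2 adjusted p = 0.0148). Among ligands, receptors and Smads together, 4 were positive and 5 negative of 9 (median -0.07), and edgeR called 0, with 4 at an unadjusted p under 0.05 (8.46% of all genes). Of the 9, 3 had setanaxib values below all vehicle values and 2 above them (9.46% and 8.11% of all genes). The median was -0.26 without setanaxib replicate 3, with 7 at an unadjusted p under 0.05, 0.0056 without setanaxib replicate 1 and -0.0040 without setanaxib replicate 2.

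TGF-beta response genes, the class to which Ccn2 belongs, had 9 of 11 negative log2 fold changes (median -0.31), and setanaxib values were below all vehicle values for 5 (9.46% of all genes). EdgeR called 0, with 4 lower at an unadjusted p under 0.05 (4.69% of all genes), and DESeq2 called 3 lower (2.42% of all genes in either direction). Without setanaxib replicate 1 the median was -0.52, with 4 positive and 7 negative. Without setanaxib replicate 3 it was -0.48, with 1 positive and 10 negative. Cilp and Comp of this list are also among the 7 markers of activated fibroblasts, all 7 of which had negative values (median -1.69), and the part of those cells in the list was not tested. The 3 of lowest p were Ltbp2, a latent TGF-beta binding protein family member (log2 fold change -2.07, SE 0.47), Timp1, an inhibitor of matrix metalloproteinases (-1.67, SE 0.43), and Cilp, a matrix protein of activated fibroblasts (-1.94, SE 0.51).

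Ccn4 was set beside targets of Wnt and beta-catenin. Of 12 such genes 8 passed the filter, 6 with a positive and 2 with a negative log2 fold change (median 0.27), and without setanaxib replicate 3 the counts were 3 and 5 (median -0.49). EdgeR called 0 of the 8, with 1 lower at an unadjusted p under 0.05 (4.69% of all genes). Axin2, a negative feedback gene of the pathway, was at 2.26, 5.30 and 12.4 CPM with setanaxib, against 5.62, 4.59 and 6.57 CPM with vehicle. It was lowest in setanaxib replicate 1 and highest in setanaxib replicate 3, as Ccn4 was. Ccnd1, cyclin D1, was at 38.1, 36.9 and 29.5 CPM with setanaxib, against 60.0, 59.9 and 52.8 CPM with vehicle (log2 fold change -0.73, SE 0.12, edgeR adjusted p = 0.276; DESeq2 adjusted p = 0.000176). Next by p came Znrf3 at 0.28 (SE 0.15) and Nkd2 at -0.63 (SE 0.44) on the log2 fold change scale, both with overlapping groups.

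On the receiving side, 15 of the 16 listed receptors and binding partners were tested and 12 had a negative log2 fold change (median -0.24). For 6 the setanaxib values were below all vehicle values and for 1, the Wnt co-receptor Lrp6, named after its values were seen, above them, beside 9.46% and 8.11% of all genes. EdgeR called 0, with 6 lower at an unadjusted p under 0.05 (4.69% of all genes). Without setanaxib replicate 1, 2 were lower at that threshold (median -0.09), and 2 without vehicle replicate 2. The count was 4 without vehicle replicate 1 or 3, with medians of -0.26 and -0.14. Itga5, the alpha subunit of the fibronectin receptor, was at 51.6, 62.8 and 50.7 CPM with setanaxib, against 73.6, 88.9 and 81.5 CPM with vehicle (log2 fold change -0.56, SE 0.12, edgeR adjusted p = 0.356; DESeq2 adjusted p = 0.00454). Itgb2 and Itgam, which form the leukocyte integrin that binds Ccn1 and Ccn2, were at -0.75 (SE 0.23) and -0.86 (SE 0.29) on that scale. Those 2 genes are also expressed by macrophages, whose 6 markers summed to 146 to 199 CPM with setanaxib and 254 to 322 CPM with vehicle. All 6 markers were lower without overlap (9.46% of all genes), and the part of macrophages in the integrin values was not tested. Itgb1 (log2 fold change -0.09, SE 0.17) and Lrp1 (-0.27, SE 0.26), the broadly expressed receptors, had overlapping groups.

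Ccn5 was read beside fibroblast markers, since cardiac fibroblasts and other mesenchymal cells are known sources of CCN proteins. The 8 fibroblast markers, Pdgfra and Dcn among them, summed to 555, 720 and 905 CPM in setanaxib replicates 1 to 3, against 1124, 844 and 1159 CPM in vehicle replicates 1 to 3, and all 8 had a negative log2 fold change. Per 1000 CPM of these markers, a measure chosen after the values were seen, Ccn5 was at 1.47, 5.40 and 6.75 CPM with setanaxib, against 9.45, 7.92 and 13.3 CPM with vehicle. Setanaxib values were below all vehicle values on this scale. The 7 markers of activated fibroblasts summed to 69.5, 114 and 89.1 CPM with setanaxib, against 322, 168 and 363 CPM with vehicle. Per 1000 CPM of these activated markers, also computed after the values were seen, Ccn5 was at 11.8, 34.0 and 68.6 CPM with setanaxib, against 33.0, 39.9 and 42.6 CPM with vehicle. On that scale the groups overlapped and setanaxib replicate 3 was the highest library, so the separation of Ccn5 depended on which fibroblast markers it was set against. Setanaxib replicate 1 was lowest for all 8 fibroblast markers and for Ccn2, Ccn3, Ccn4 and Ccn5. This low was not particular to fibroblast markers, as the library was also lowest for 5 of 6 macrophage and 4 of 6 endothelial markers. It was lowest for 2 of 9 smooth muscle and pericyte markers and 0 of 7 ventricular cardiomyocyte markers. The endothelial markers summed to 516 to 657 CPM with setanaxib and 666 to 747 CPM with vehicle, and those of smooth muscle and pericytes to 745 to 1174 CPM with setanaxib and 1045 to 1158 CPM with vehicle.

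Other matricellular proteins, which like the CCN family act on cells from the matrix, had 10 of 12 negative log2 fold changes (median -0.34). Setanaxib values were below all vehicle values for 5 (9.46% of all genes). EdgeR called 0, with 5 lower at an unadjusted p under 0.05 (4.69% of all genes), and DESeq2 called 4 lower (2.42% of all genes in either direction). Without setanaxib replicate 3 the median was -0.61. The 8 fibroblast markers (median -0.67) and the 7 activated fibroblast markers (median -1.69) were all lower as well, Postn and Thbs4 belong to both this list and the activated markers, and the part of those cells in the list was not tested. Postn, periostin, was at 37.8, 54.0 and 43.3 CPM with setanaxib, against 134, 88.4 and 154 CPM with vehicle (log2 fold change -1.48, SE 0.24, edgeR adjusted p = 0.234; DESeq2 adjusted p = 1.2e-06). Sparc, a collagen-binding protein, was at -0.52 (SE 0.11) on the log2 fold change scale, and Thbs4, a thrombospondin, at -2.20 (SE 0.48). The highest library varied within this list, being vehicle replicate 3 for 6 genes and vehicle replicate 2 for 3. The CCN genes likewise differed from one another in which library was high, and 1 of 5 had groups that did not overlap (17.6% of all genes).

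**Figure D4:**
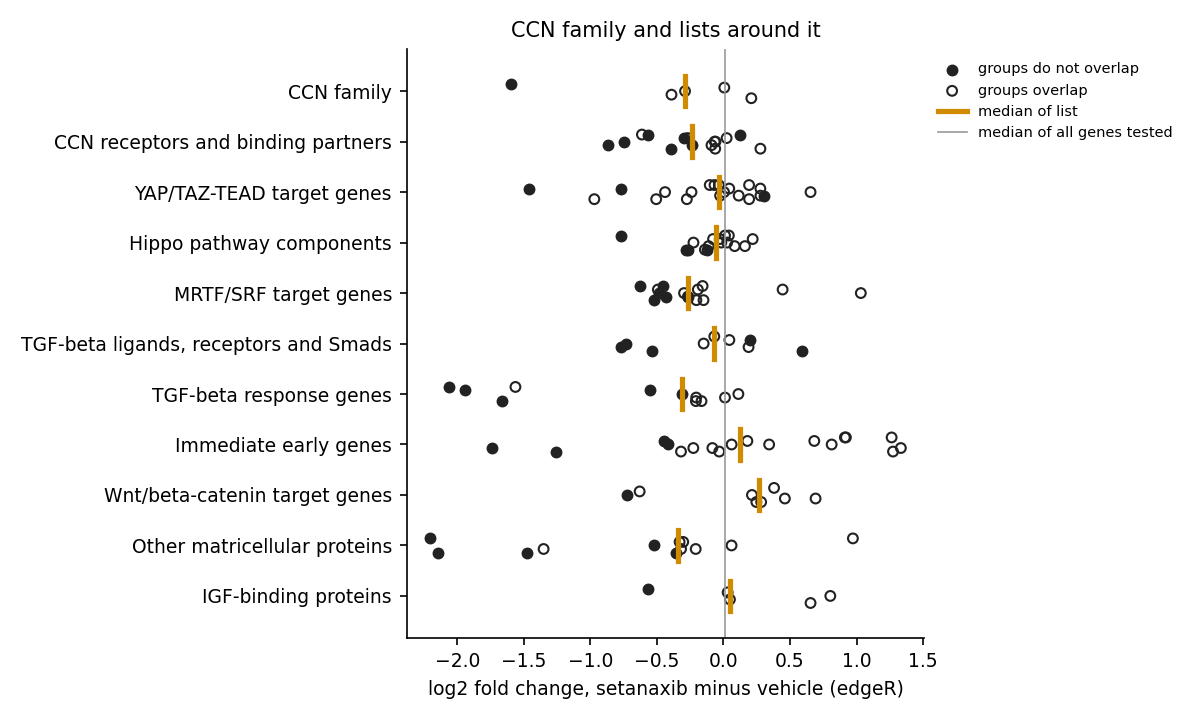
Log2 fold change, setanaxib minus vehicle, of each tested gene in the CCN family and in 10 lists around it; filled points are genes whose groups do not overlap, orange bars are list medians and the grey line is the median of all genes tested. Ccn5 at -1.60 is the only filled point of the family.

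The genes whose pattern over the 6 libraries was most like that of each member were found by the root mean square difference of log2 CPM, each gene centred on its own mean, among 12487 other genes. For Ccn1 these were Haus3, Endou, Adgrg3, Bean1 and Alpl, with differences of 0.17 to 0.23. Alpl, tissue-nonspecific alkaline phosphatase, was at 84.7, 21.2 and 12.9 CPM with setanaxib, against 30.1, 33.4 and 29.3 CPM with vehicle. For Ccn2 they were Erc2, Tnfaip8l2, Zfp605, Tnfaip6 and Nrarp (0.05 to 0.12), and for Ccn3 Zc4h2, Itih5, Clcn1, Thrsp and Rab27b (0.20 to 0.25). For Ccn4 they were Ighm, Il33, Trerf1, Vsig4 and Tmem51 (0.20 to 0.26). Ighm, the immunoglobulin mu heavy chain, was at 2.14, 6.37 and 27.5 CPM with setanaxib, against 9.68, 12.0 and 10.4 CPM with vehicle. For Ccn5 they were Rai14, Dio2, Gng8, Kcnt2 and Cx3cr1 (0.31 to 0.46). Dio2, a thyroid hormone deiodinase, was at 0.849, 2.27 and 4.34 CPM with setanaxib, against 7.90, 3.79 and 8.50 CPM with vehicle. No member was among the 5 genes nearest to another. By size of difference the closest pair was Ccn2 and Ccn3, 0.63 apart, and the farthest was Ccn1 and Ccn5, 1.81 apart. Yet most of the 12487 genes were nearer, with Ccn3 in place 11246 from Ccn2 and Ccn2 in place 8168 from Ccn3. By place the nearest member was Ccn4, in place 138 from Ccn5, with Ccn5 in place 1367 from Ccn4.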

How the data were processed

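RNA sequencing of 6 heart libraries was analysed, 3 setanaxib and 3 vehicle, grouped by the labels' treatment; replicate numbers follow record order and pair nothing. The authors deposited an estimated count for each gene, written as a whole number (none was rounded here) and not scaled between libraries. The submitters' processing notes name STAR 2.5.4b, featureCounts 2.0.1, FastQC 0.11.9, DESeq2 1.42.0 and the build GRCm39 but give them no step. Per the file headers, row and column names have the form StringTie's count script writes. Such estimates can be uncertain for overlapping genes.

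EdgeR 4.0.16 in R 4.3.3 was fitted on all genes: filterByExpr (minimum 10 counts) kept 20472, TMM factors were 0.892 to 1.19, and the two-sided quasi-likelihood test had an adjusted p threshold of 0.05. SEs and intervals derive from its F statistic. The test had been planned for raw counts and was kept for the estimates. DESeq2 1.42.0, limma-voom (limma 3.58.1), other scaling and filters, and each library left out were alternatives; the scripts were tested on simulated data. Log2 CPM used a prior count of 2, the Ccn5 to Ccn2 ratio 0.5. Where a symbol had several rows (80 symbols), the row with the larger total was used. Exon lengths and overlaps came from GENCODE M21 on GRCm38, which differs from the authors' build, so no coordinates of counted genes are given; the promoter is RefSeq's on GRCm38.p6. No pair of libraries agreed within sampling noise (chi-square over genes per degree of freedom 38.3 or more). Depth was 110803307 to 154003318 estimated counts.

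The members and the 10 gene lists and 14 marker lists were chosen with earlier results of these data known. Named genes were all members, the 3 of lowest p in each list, 14 pathway genes listed with the rule, and the 5 most similar genes per member, leaving out predicted genes; 1 gene under this rule is not reported here. No list was given a set test.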

Additional observations from a re-analysis of the deposited data

How the results depend on the processing

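Ccn2, Ccn5 and the Ccn5 to Ccn2 ratio were negative under every alternative run, and no member passed an adjusted p of 0.05 under any. With 1 library left out, log2 fold changes ranged from -0.79 to 0.55 for Ccn1, from -0.58 to -0.22 for Ccn2, from -0.75 to 0.14 for Ccn3, from -1.26 to 0.48 for Ccn4 and from -2.21 to -1.13 for Ccn5, and the ratio's difference from -2.05 to -0.90. By limma-voom Ccn1 was -0.12 and Ccn4 -0.59, both with the opposite sign; Ccn4 was -0.0050 with DESeq2's size factors in edgeR and -0.0064 with DESeq2, beside 0.0062. Over all genes DESeq2 called 505, limma-voom 0 and edgeR 1, and edgeR 0 to 1 with a library left out, 0 without vehicle replicate 1, 2 or 3. The cause was not tested. No paired analysis was possible because the labels give the groups no shared replicate numbers. These comparisons rest on 3 libraries a group, and the parts of spread between libraries and of depth in the lack of calls were not tested.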

Other observations

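IGF-binding proteins, which share the amino-terminal module of the CCN family, also differed in direction without setanaxib replicate 3, as Ccn4 did. Of 6 genes 5 passed the filter, 4 with a positive and 1 with a negative log2 fold change (median 0.05), and without setanaxib replicate 3 all 5 were negative (median -0.52). Igfbp5 was at 122, 152 and 754 CPM in setanaxib replicates 1 to 3, against 230, 168 and 192 CPM in vehicle replicates 1 to 3. Igfbp3 was at 13.8, 29.4 and 87.2 CPM with setanaxib, against 31.1, 13.2 and 38.5 CPM with vehicle. Igfbp7 did not follow them: it was at 66.9, 67.8 and 77.2 CPM with setanaxib, against 110, 93.5 and 111 CPM with vehicle, with no overlap between groups (log2 fold change -0.57, SE 0.11, edgeR adjusted p = 0.303; DESeq2 adjusted p = 0.000123). The atrial, adipocyte and lung markers are high in the same library, and their part in the Igfbp3 and Igfbp5 values was not tested.

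Within a library the log2 ratio of Ccn1 to Ccn2 counts was 0.63, -1.95 and -1.99 in setanaxib replicates 1 to 3, against -1.04, -1.68 and -1.41 in vehicle replicates 1 to 3. As for Ccn1 itself, the vehicle libraries lay between the setanaxib libraries. This ratio does not depend on scaling between libraries.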
